A study of Mus musculus with 2 samples.

Results

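Epithelial Cell cells are the cells to which the authors' deposited cell table gives the type of that name, joined by barcode to the 4 filtered matrices of the series. There were 151 of them among 5678 annotated cells, 29 of 1599 in suspension F0_8, 34 of 1318 in F0_9, 53 of 1310 in F1_1 and 35 of 1451 in F1_mix. All cells came from mouse embryos at E11.5 that carried piggyBac insertions of an EGFP cassette linked to a DNA barcode and driven by CAG, which is a broadly active promoter. F0_8 and F0_9 each came from 1 founder (F0) embryo that had received transposase mRNA and donor DNA as a fertilized egg. F1_1 came from 1 embryo of the next generation (F1). F1_mix was an artificial mosaic of cells from a pair of distinct F1 embryos. The embryos were dissociated with trypsin, and the suspensions were tagged with multiplexing oligos, sorted to remove debris and run as 1 droplet scRNA-seq library that counts unique molecular identifiers (UMIs) at the 3′ end of transcripts. No embryo without the transgene was sampled, and no embryo was prepared again, so that the spread between suspensions holds embryo, preparation and counting differences together. The fertilized eggs of the study came from C57BL/6J crosses by its general methods, and the sources used here do not give the cross behind the F1 embryos.

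Epithelial cells form sheets that are held together by E-cadherin junctions, desmosomes and tight junctions and are braced inside by keratin filaments. In the midgestation embryo such sheets arise from separate sources: the surface ectoderm gives the epidermis, the oral lining and the sensory placodes of ear, nose and lens, and the endoderm gives the lining of pharynx, lung and gut with its glands. Trp63 and the basal keratins mark stratifying surface ectoderm, and Foxa1, Foxa2 and the signal Shh mark endoderm, although Shh and Foxa2 are also made by the floor plate of the neural tube.

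Epithelial Cell made up 1.81% of the cells of F0_8 and 2.58% of those of F0_9 among the founders, and 4.05% of F1_1 and 2.41% of F1_mix. The highest share was in F1_1 and the lowest in F0_8, and founders and F1 overlapped. With 2 against 2 suspensions the smallest p of an exact permutation test is 0.333, so no such test was used. The cells were deeply sequenced, with a median of 16592, 16796, 17087 and 16785 gene UMIs per cell, founders first and in the order of naming above, and 4771 to 4834.5 detected genes. The median mitochondrial share was 2.10% to 2.61%, and 10 cells lay at or above 5%. No barcode was shared between suspensions. Of the 16 annotated types, 12 were deeply sequenced, and the 11 others of these served as the background below. The 4 shallow types, Endodermal Progenitor, Foregut, Hepatocyte and Midgut, were left out of it. A level is the sum of a gene's UMIs over the cells, per 10000 gene UMIs. Summed cells of a type cannot tell more cells with a transcript from more transcripts per cell, and the share of cells with a UMI is given beside the level for that reason.

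Checked against its markers, the label held. Epcam, a homophilic adhesion molecule of epithelia, had levels of 7.09 in F0_8 and 9.67 in F0_9, and of 8.28 in F1_1 and 7.96 in F1_mix, and 149 of 151 cells (98.7%) had a UMI. In Ependymal Cell, the type with the next highest level, the 4 suspensions lay between 0.0237 and 0.402. Krt8, a type II keratin of simple epithelia, had levels of 1.87, 3.68, 2.97 and 2.29 in the same order of suspensions and was seen in 123 cells. Its partner Krt18, a type I keratin, had levels of 2.27, 4.19, 3.91 and 3.05 and was seen in 133 cells. Both keratins were lowest in F0_8 and highest in F0_9, so the founders enclosed the F1 values. Cdh1, which encodes E-cadherin, had levels of 0.924, 1.13, 1.02 and 0.774 and was seen in 101 cells. For each of the 4 genes the lowest suspension of Epithelial Cell lay above the highest suspension of the type with the next highest level. This held for 2.27% of the genes with 50 or more UMIs. Epcam and Cdh1 were over 10 times the next highest type, which held for 0.675% of the 7402 genes with 50 or more UMIs in Epithelial Cell cells. As a measure of free RNA, the share of Mesodermal Progenitor cells (median 18842 gene UMIs) with a UMI was 8.06% for Epcam, 2.42% for Krt8, 9.27% for Krt18 and 0.202% for Cdh1. Since the cells had been clustered and named on such genes, these contrasts are a description and were not tested.

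**Figure D1:**
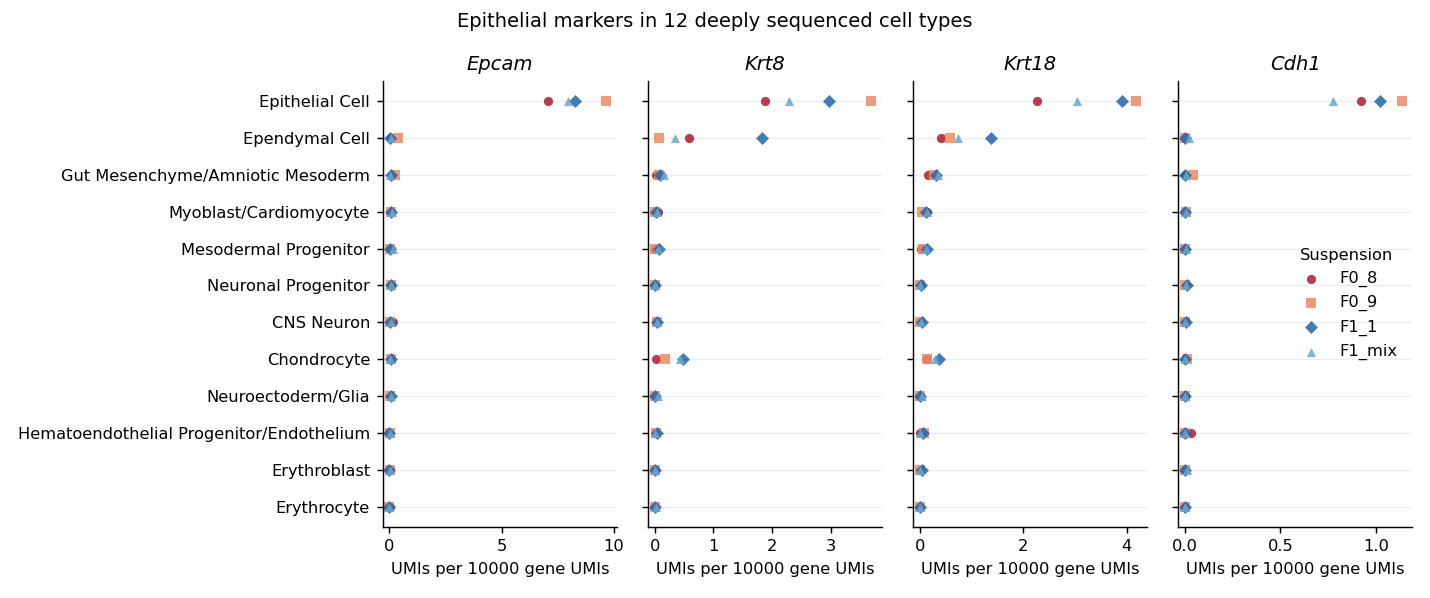
Level (UMIs per 10000 gene UMIs, x axis) of Epcam, Krt8, Krt18 and Cdh1 in the 12 deeply sequenced types (y axis), with 1 point per suspension. The 4 points of Epithelial Cell lie between 7.09 and 9.67 for Epcam, and Ependymal Cell is the only other type above 0.5 for Krt8 in any suspension.

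The RefSeq table of promoters (GRCm38.p6, the build of the files) held entries for 3 of the 4 genes, Epcam, Krt8 and Krt18, and none for Cdh1. They are shown because these genes are high together in the type and because the E-box read by Snail and Zeb repressors (letters CAGGTG, searched on both strands) is the textbook element of epithelial promoters. The 250 bases before the annotated start of Epcam (chr17:87635729-87635978, plus strand), Krt8 (chr15:102004343-102004592, minus strand) and Krt18 (chr15:102027966-102028215, plus strand) are printed with that E-box in capitals, on either strand.
Epcam: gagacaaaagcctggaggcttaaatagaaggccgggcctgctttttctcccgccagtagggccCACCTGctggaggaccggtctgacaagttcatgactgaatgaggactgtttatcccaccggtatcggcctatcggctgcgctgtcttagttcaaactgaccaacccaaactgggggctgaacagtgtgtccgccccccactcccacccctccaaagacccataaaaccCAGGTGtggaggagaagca
Krt8: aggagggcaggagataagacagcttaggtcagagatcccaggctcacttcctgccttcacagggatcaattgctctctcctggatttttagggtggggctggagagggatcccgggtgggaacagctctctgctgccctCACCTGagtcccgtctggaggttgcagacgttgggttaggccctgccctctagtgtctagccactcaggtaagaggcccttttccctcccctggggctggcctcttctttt
Krt18: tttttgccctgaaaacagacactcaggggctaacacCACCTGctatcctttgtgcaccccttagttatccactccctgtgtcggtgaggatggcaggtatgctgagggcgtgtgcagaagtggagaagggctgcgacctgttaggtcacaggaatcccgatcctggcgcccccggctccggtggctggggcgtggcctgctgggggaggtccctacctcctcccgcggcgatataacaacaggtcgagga
Epcam held 2 such E-boxes, which began 187 and 19 bases before the start, Krt8 held 1 at 111 bases and Krt18 held 1 at 214 bases. The same letters occurred in 6640 of 32851 RefSeq windows of 300 bases (20.2%), which reach 50 bases past the start. The palindrome bound by Grhl factors (AACC followed by GGTT) occurred in none of the 3 windows and in 0.146% of all windows. A match is a description of letters and not a measured site. The genes Krt8 and Krt18 are neighbours on chromosome 15, at 101996711-102004342 and 102028216-102032026.

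Junction and regulator genes followed the core. Of 15 adherens and tight junction genes, 12 had their lowest suspension above every suspension of the next highest type, against 2.27% of the genes with 50 or more UMIs. All 15 had a higher pooled level than in every other deep type, against 9.21% of those genes. Cldn6, a claudin of embryonic epithelia, had a level of 1.95 (1.57 to 2.23 over suspensions) and was seen in 126 cells, while the next highest type reached 0.0219. Cldn7 had a level of 1.67 (1.06 to 1.85), Cldn3 one of 1.30 (1.02 to 1.43) and Cldn4 one of 0.771 (0.362 to 1.12). These claudins seal tight junctions, and none of the 4 was above a pooled level of 0.0548 in another deep type. The exceptions among the 15 were F11r, Tjp3 and Marveld3, whose suspensions overlapped those of another type. F11r, a junctional adhesion molecule that vessels also make, had a level of 0.841 beside 0.514 in Hematoendothelial Progenitor/Endothelium.

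Of 20 genes of desmosomes, hemidesmosomes and basement membrane, 11 were above the next highest type in every suspension. Among genes with 50 or more UMIs this share was 2.27%. A higher pooled level than in every other deep type was found for 15 of the 20, against 9.21% of those genes. Dsp, the desmoplakin that ties keratin to desmosomes, had a level of 1.22 (1.03 to 1.62) in 105 cells against 0.0655 in Chondrocyte. Perp, a desmosomal target of Trp63, had a level of 1.48 (1.02 to 1.78) in 94 cells. Itga6 was higher in Hematoendothelial Progenitor/Endothelium (2.14 against 1.04), and Dst was higher in CNS Neuron (2.06 against 0.981), so these 2 genes did not set the type apart.

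Of 18 regulators and surface proteases of epithelia, 14 were above the next highest type in every suspension. Among genes with 50 or more UMIs this share was 2.27%. Grhl2, a factor that activates Cdh1 and claudin genes, had levels of 1.23, 0.733, 0.809 and 0.807 in the usual order of suspensions, and was seen in 107 cells against 0.0164 in Ependymal Cell. Esrp1, which drives epithelial splicing, had levels of 0.643, 1.13, 0.942 and 0.972. F0_8 was the highest of the suspensions for Grhl2 and the lowest for Esrp1. Spint2, an inhibitor of membrane proteases, was seen in 150 of 151 cells at a level of 3.77 (3.13 to 4.398). Klf4 was the exception that was higher elsewhere, at 0.275 against 0.409 in Mesodermal Progenitor.

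The repressors of the epithelial state were low. Of 10 genes of the mesenchymal shift, 0 were highest in Epithelial Cell and 7 lay below 0.1 times the highest type. Among the 6 of them with 50 or more UMIs this held for 3 (Zeb2, Cdh11 and Vim), against 106 of the 7402 genes with as many UMIs. Zeb1 had a level of 0.0892 (0.0698 to 0.100), with a UMI in 17 cells, against 4.43 in CNS Neuron. Zeb2 had a level of 0.225 (0.148 to 0.402) against 9.90 in Hematoendothelial Progenitor/Endothelium, and was lower in Epithelial Cell than in all 11 other deep types. Twist1 had a level of 0.0736 against 5.65 in Mesodermal Progenitor, and Vim, which encodes the intermediate filament of mesenchyme, one of 1.94 (1.02 to 2.71) against 20.1 in Neuronal Progenitor. Snai2 was an exception at 0.302, with a UMI in 38 cells, beside 0.542 in Gut Mesenchyme/Amniotic Mesoderm, and all 38 cells had a surface ectoderm call as defined below. Cdh2, N-cadherin, was seen in 69 cells at 1.07.

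Markers of macrophages, vessels and muscle were sparse. Of 5 macrophage genes, Ptprc, Csf1r, C1qb and Tyrobp had 0 UMIs in the 151 cells, which allows a share of cells with a UMI of up to 1.99% (3 counts of 151), and the summed level of the list was 0 to 0.0222 over suspensions. The endothelial list reached 0 to 0.0659 with Cdh5 at 0, and the muscle list 0 to 0.0698 with Myod1, Tnnt2 and Myh6 at 0. The mesenchyme list of 8 genes had levels of 0.502, 1.45, 0.920 and 1.71 over F0_8, F0_9, F1_1 and F1_mix, led by Dcn, of whose 138 UMIs 37 were in 1 cell of F0_9. Neural markers were not near 0. The neuron list of 6 genes lay at 3.23, 1.92, 1.92 and 1.27, with Map2 in 74 cells and Stmn2 in 18, and the neural progenitor list lay between 1.97 and 2.89, mostly Sox2, which epithelia also make. The part of other cells or of doublets in these values was not tested. Hbb-y, an embryonic globin, had a UMI in 42.4% of Epithelial Cell cells and in 49.0% of Mesodermal Progenitor cells, a type that should lack it. The list of 9 red cell genes lay between 1.12 and 1.37 over suspensions, with 2 or more of its genes in 89 cells, against 6940 in Erythrocyte.

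By the rule of naming the 30 genes with 50 or more UMIs and the highest ratio to the next highest deep type, Krt15 stood first, with a level of 1.25 against 0.00236 in Neuronal Progenitor. Trim29, Krt5 and Sfn followed. Among the 30 were the junction genes Cldn4, Cldn6, Cldn7, Epcam and Cdh1, the kindlin Fermt1, the keratin Krt14, the factors Trp63 and Grhl2, the trafficking genes Ap1m2 and Rab25, the protease Prss8, the membrane proteins Cdcp1 and Nectin4, the kinase Ripk4 and the keratinocyte differentiation factor Kdf1. Fermt1, an activator of integrins in keratinocytes, was seen in 101 cells at 1.101 (lowest suspension 0.924). Ap1m2, the adaptor of basolateral sorting, was seen in 80 cells at 0.473 (lowest suspension 0.422). Some leading genes rested on few cells. Cym had 63 UMIs in 3 cells of F1_1, 55 of them in 1 cell, Sult1e1 had 60 UMIs in 7 cells, and Oc90 had 627 UMIs in 12 cells.

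The authors' column of germ layers placed all 151 cells under endoderm, and the cells were therefore divided by 2 lists of 12 genes each. A cell was called surface ectoderm when it held UMIs of 2 or more surface genes and of more surface than endoderm genes, and endoderm by the reverse rule. There were 90 surface calls (59.6%, exact 95% binomial interval 51.3% to 67.5%), 19 endoderm calls (12.6%, 7.75% to 18.9%, and 8% after thinning each cell to 5000 gene UMIs) and 42 cells without a call (27.8%). Intervals cover counting error only. Surface calls made up 17 of 29 cells in F0_8, 22 of 34 in F0_9, 29 of 53 in F1_1 and 22 of 35 in F1_mix. Endoderm calls numbered 2, 4, 10 and 3 in the same order. Surface calls were the largest group in every suspension, and the 95% intervals of the 4 shares overlapped for both calls.

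**Figure D2:**
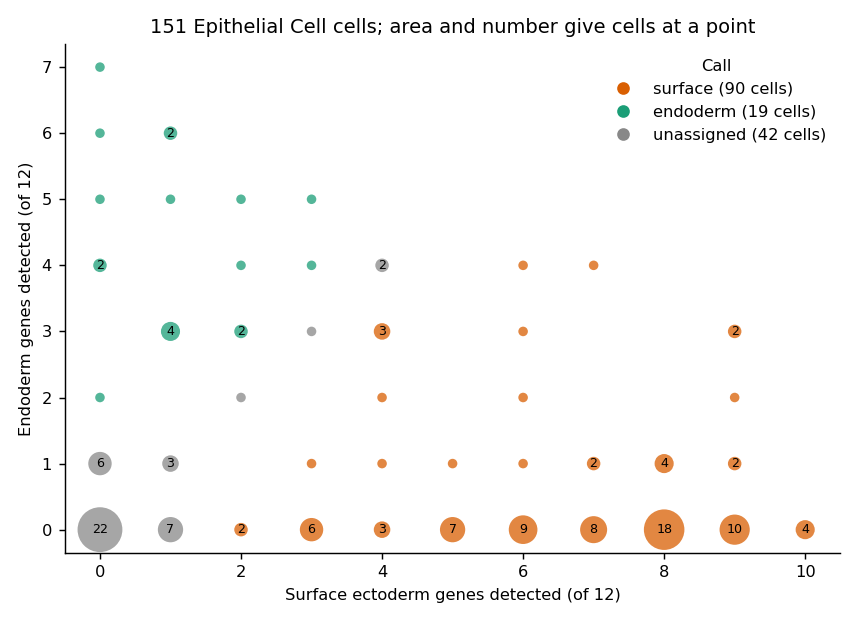
Number of surface ectoderm genes (x axis, of 12) and of endoderm genes (y axis, of 12) with a UMI in each of the 151 cells, where the area of a point and the number on it give the cells at that place. Most of the 90 surface calls lie along the bottom edge with no endoderm gene, 22 cells hold no gene of either list, and 21 cells hold 2 or more genes of both.

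The calls exclude each other by their rule, while the lists overlapped in part. There were 100 cells with 2 or more surface genes, 34 with 2 or more endoderm genes and 21 with both. Of the 29 cells with 3 or more endoderm genes, 12 held 1 or fewer surface genes. There were 56 cells with 5 or more surface genes and no endoderm gene, 41 cells held 8 or more surface genes, and only 6 of the cells with a call were decided by a difference of 1 gene. Applied to the other 11 deep types, the rule gave surface calls in 0% to 3.42% of cells, the highest in Myoblast/Cardiomyocyte, where 1 cell held 9 surface genes. It was less selective for endoderm. Endoderm calls reached 18.2% in Ependymal Cell and 18.4% in Hematoendothelial Progenitor/Endothelium, above the share in Epithelial Cell itself. With 3 or more endoderm genes the shares were 19.2% in Epithelial Cell, 10.2% in Ependymal Cell and 5.26% in Hematoendothelial Progenitor/Endothelium, and 5 or more such genes were held by 8 cells of Epithelial Cell and by none of the other deep types, whose highest number was 4. An endoderm call is therefore read here only within cells that also carry the epithelial core.

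Among the surface genes, Trp63, the regulator of stratified epithelia, had levels of 1.41 and 2.55 in the founders F0_8 and F0_9 and of 1.59 and 2.01 in F1_1 and F1_mix, with a UMI in 84 cells. Krt5, the type II keratin of basal cells, had levels of 1.41, 2.01, 1.19 and 0.857 in 51 cells. Its partner Krt14 had levels of 2.49, 1.06, 1.54 and 0.659 in 56 cells. F0_9 led for Trp63 and Krt5 and F0_8 for Krt14, and F1_mix was lowest for both keratins. Krt15 had levels of 1.35, 1.76, 1.09 and 0.939 in 50 cells. Sfn, a 14-3-3 protein of keratinocytes, was the most widely seen of the list, in 100 cells, with levels of 2.53, 4.64, 2.88 and 2.26. Wnt6, a ligand of the surface ectoderm, had levels of 1.95, 2.41, 2.56 and 1.89 in 77 cells and differed little between suspensions. Tfap2a and Tfap2c, factors of early ectoderm, were not set apart, since CNS Neuron reached 0.968 for Tfap2a beside 0.612 here, and Neuronal Progenitor 0.196 for Tfap2c beside 0.171. The other 10 of the 12 genes had their lowest suspension above the next highest type, against 2.27% of genes with 50 or more UMIs.

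The basal keratins were mostly found together with Trp63 in the same cells. Of the 51 cells with Krt5, 48 had Trp63 and 38 had Krt14, and of the 50 cells with Krt15, 44 had Trp63. Trp63 was also seen in 14 of the 27 cells with Foxa2 and in 18 of the 31 cells with Shh. Genes of the periderm, the flat layer that covers the early epidermis, were found in few cells. Krt4 and Krt6a had 0 UMIs, Gabrp had 58 UMIs in 11 cells, Rhov 15 in 10 cells and Grhl3, a factor of the epidermal barrier, 48 in 20 cells. These 3 detected genes were higher than in every other deep type, and Grhl3 was so in every suspension. The list as a whole had levels of 0.141, 1.204, 0.432 and 0.0988 with F0_9 highest.

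Among the endoderm genes, Shh, a secreted signal, had levels of 1.004 and 0.977 in F0_8 and F0_9 and of 0.477 and 1.24 in F1_1 and F1_mix, with a UMI in 31 cells. Foxa2, a pioneer factor, had levels of 0.261, 0.157, 0.344 and 0.445 in 27 cells, and Foxa1 had levels of 0.141, 0.209, 0.222 and 0.181 in 26 cells. Founders and F1 overlapped for Foxa1 and Shh, and Foxa2 was lower in both founders. None of the 12 genes was above the next highest type in every suspension, and Ependymal Cell had higher pooled levels of Shh (1.97) and Foxa2 (0.334). The 2 Foxa genes were seen together in 17 cells, and 20 of the 27 cells with Foxa2 also had Shh. Every endoderm call held Foxa1, Foxa2 or Shh. In Mesodermal Progenitor, 0.202% of cells had a UMI of Foxa2 and 0.605% one of Shh. Other endoderm factors were rare, with Cdx2 in 2 cells, Hnf4a in 2 cells and Sox17 in 1 cell.

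Genes of single endodermal organs appeared in a few cells each. Nkx2-1, a factor of lung and thyroid, was seen in 6 cells, and all 25 UMIs of the surfactant gene Sftpc were in 1 cell of F0_9. Pdx1, of the pancreas and duodenum, was seen in 2 cells. Ttr, a carrier protein of liver and yolk sac, was seen in 6 cells, with 32 of its 46 UMIs in 1 cell of F1_1, and 38 of the 57 UMIs of Rbp4 were in 1 cell of F1_mix. Alb had 0 UMIs in the 151 cells. These values describe single cells and give no level for a type.

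Surface and endoderm calls also differed in genes that the lists do not hold. Krt7, a keratin of simple and ductal epithelia, was at 1.83 in cells with an endoderm call (1.41 to 2.82 over suspensions) and at 0.743 in those with a surface call (0.228 to 1.15). Krt19, also of such epithelia, was at 1.57 (0 to 2.32) and 0.867 (0.706 to 1.06), and the suspensions overlapped. Krt8 had a level of 4.90 in endoderm calls (3.70 to 5.24 over suspensions) and of 2.37 in surface calls (1.60 to 3.62), so that the suspensions did not overlap. Its partner Krt18 was at 5.75 (1.54 to 6.48) and 2.67 (1.81 to 3.65), and overlapped, since F0_8 had 1.54 in endoderm calls and 1.99 in surface calls. The endoderm values of F0_8 rest on 2 cells. Fgf8 had 586 UMIs in surface calls and 0 in endoderm calls. Tfap2b had 446 UMIs in 50 cells with a surface call and 0 in endoderm calls, and Cxcl14, a chemokine of skin epithelium, 1302 and 1. Mecom, a zinc finger factor, went the other way, at 11.4 in endoderm calls and 1.07 in surface calls, and Galntl6 had 108 UMIs in the 19 endoderm calls and 9 in the 90 surface calls. Fgf8, Tfap2b, Cxcl14, Mecom and Galntl6 were among the genes outside the 2 lists with the most extreme ratios between the calls. The 2 groups of cells were cut from the same transcripts, so these differences have no test.

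Secreted signals of epithelia formed a list of 22 genes, of which 8 were above the next highest type in every suspension. Among genes with 50 or more UMIs this share was 2.27%. Pdgfa, which signals to mesenchyme beneath epithelia, had levels of 3.72 and 4.33 in F0_8 and F0_9 and of 4.99 and 5.62 in F1_1 and F1_mix, with a UMI in 134 cells, against 0.797 in Myoblast/Cardiomyocyte. Its level in surface calls was 6.70 and in endoderm calls 2.06. Wnt4 had levels of 2.41, 2.18, 1.81 and 1.98 and was seen in 98 cells, 80 of them surface calls. Pdgfa was higher in both F1 suspensions and Wnt4 in both founders.

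Fgf8, the ligand of the limb ridge and of facial ectoderm, was uneven between suspensions. Its level was 0.121 and 1.68 in F0_8 and F0_9 and 2.69 and 4.07 in F1_1 and F1_mix. The 592 UMIs came from 31 cells, of which 3 and 7 were in the founders and 11 and 10 in the F1 suspensions, in the same order, and 1 cell of F1_1 held 104 of them. Cells with 5 or more UMIs numbered 0, 3, 8 and 6 in the same order. Of these 17 cells, 16 had Trp63 and 13 had Wnt6, which 68 and 64 of the other 134 cells also had. Of ligands and factors known from the limb ridge, Fgf9 was in 13 of the 17 (40 of the other 134), Sp8 in 8 (20), Rspo2 in 5 (7), Sp6 in 5 (7) and Fgf17 in 4 (7). Wnt3, a ligand of limb ectoderm, was in 3 of the 17 and in 35 of the others. Of the 17 cells, 8 had Pitx1, a factor of oral ectoderm and hindlimb, which 42 of the other 134 also had. None of them had Foxa1 or Foxa2. Fgf4, also of the limb ridge, had 0 UMIs in all 151 cells.

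Receptors of epithelial signals formed a list of their own. Of 14 receptor genes, 1 (Edar, the receptor of skin appendage placodes) was above the next highest type in every suspension. Among genes with 50 or more UMIs this share was 2.27%. Fgfr2, whose epithelial form answers mesenchymal Fgf10, was seen in 141 cells with levels of 3.11, 3.002, 2.96 and 2.37 in the usual order, beside 2.30 in Neuronal Progenitor. The summed counts do not separate its splice forms. Egfr was seen in 57 cells and had 0 UMIs in cells with an endoderm call.

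Leiden clustering of the 151 cells alone gave 4 clusters, numbered by size, each with cells of all 4 suspensions. The number was 2 at resolution 0.5 and 7 with 10 neighbours, so the values by cluster hold for the 4 clusters only. Cluster 1 held 51 cells (8, 13, 19 and 11 in the order F0_8, F0_9, F1_1, F1_mix), all with a surface call, and had UMIs of all 12 surface genes at a summed level of 30.1. Its leading genes were Gabrp, Cxcl14, Wnt3, Hapln1, Gjb6, Wnt10b, Irx4, Gjb2, Lgals7 and Wnt9b, which include 3 Wnt ligands, 2 connexins and Gabrp of the periderm list, and no gene of the surface list. Wnt6 was seen in 51 of its 51 cells, Tfap2a in 44 and Krt5 in 41. Cluster 4 held 22 cells (4, 4, 9 and 5), 17 of them with an endoderm call, and had UMIs of all 12 endoderm genes at a summed level of 6.75. It was led by Cym, Ambp, Gata4, Ttr, Nr5a2, Akr1c19, Rbp4, Cpn1, Abi3bp and Rap1gap2, of which Ttr and Rbp4 are on the yolk sac list and none is on the endoderm list. Foxa1, Foxa2 and Shh were each seen in 15 of the 22 cells, Hhex in 7 and Gata6 in 11. The defining genes of a cluster are a description, and no cluster was given a cell type name, since none was led by genes of the list that its calls follow.

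The ear markers that lead cluster 2 were in few of its cells. Most cells of cluster 3 had a surface call, but its leading genes held Pax9 of the pharyngeal pouch list and no gene of the surface list. By summed level, cluster 3 had 15.9 for the surface list, 4.68 for a list of oral and pituitary genes and 1.76 for the pharyngeal pouch list. Cluster 3 held 34 cells (7, 6, 11 and 10) and its leading genes included Foxe1, Cntn4, Galnt13, Pax9, Anxa8, Csmd1, Lgr5, Cdo1 and Ifitm3. It held 28 surface and 2 endoderm calls. Trp63 was seen in 32 of its cells, Sox2 in 29, Pitx1 in 26, Foxe1 in 17, Pax9 in 14 and Shh in 14. Foxe1 is a factor of thyroid and palate, Pax9 of pharyngeal pouches and teeth, and Pitx1 of the oral ectoderm, and Krt5 was seen in 7 cells only. Cluster 2 held 44 cells (10, 11, 14 and 9), of which 36 had no call and 8 a surface call. It was led by Oc90, Lmx1a, Sult1e1, Hmx2, Acsm4, Pcp4, Crym, Cntnap5b, Mfng and Frmpd4. Epcam was seen in all 44 of its cells and Krt18 in 41, while Trp63 was seen in 3. Cdh2 was seen in 38 of them at a level of 2.55, beside 0.344 to 0.574 in the other clusters.

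**Figure D3:**
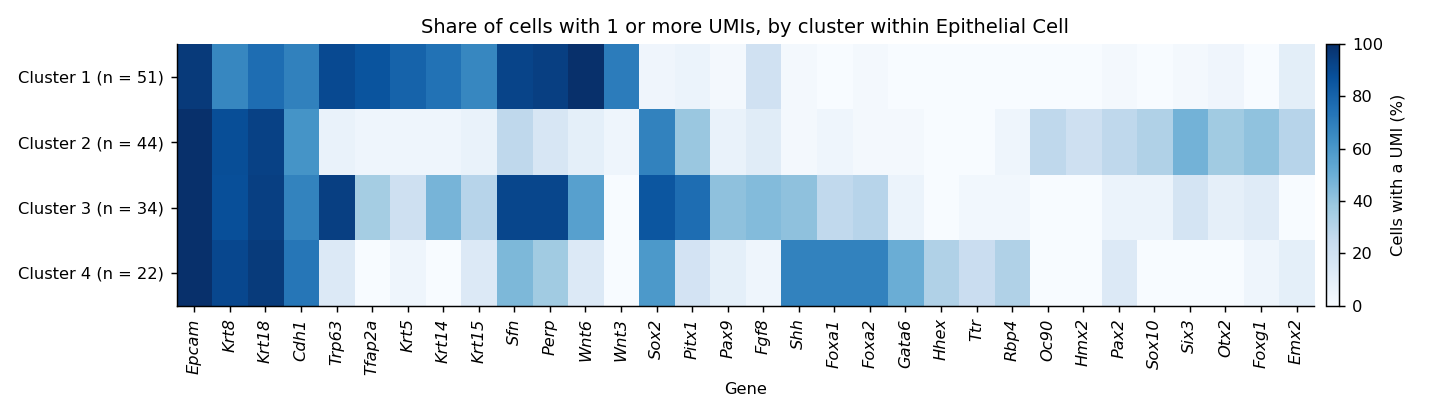
Share of cells with 1 or more UMIs (colour, %) of named genes (x axis) in the 4 clusters (y axis). Epcam, Krt8 and Krt18 fill all rows, the block from Trp63 to Wnt3 is dark in cluster 1 and in part in cluster 3, and paler blocks from Shh to Rbp4 and from Oc90 to Emx2 are darkest in clusters 4 and 2.

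Oc90 and Six3 mostly marked different cells of cluster 2. Oc90, an otolith protein of the ear vesicle, had levels of 5.48 and 0.349 in F0_8 and F0_9 and of 2.66 and 1.55 in F1_1 and F1_mix, from 3, 1, 6 and 2 cells. The 11 cells with 5 or more UMIs of Oc90 were all in cluster 2. All 11 had Epcam, which 138 of the other 140 cells also had. Of factors and signals of the otic vesicle, 10 had Lmx1a (5 of the other 140), 9 had Sox10 (7) and 9 had Fgf9 (44). Tbx1 was in 9 (25), Hmx2 in 8 (1), Hmx3 in 8 (3) and Pax2 in 7 (11). None of the 11 had Trp63, Krt5, Krt14 or Tfap2a (84, 51, 56 and 58 of the others), and 1 had Six3 (27). Six3, a factor of forebrain and anterior placodes, was seen in 21 cells of cluster 2. Of the 12 cells with 5 or more UMIs of Six3, 9 were in cluster 2 and 3 in cluster 3. Sox2 was in 11 of them (63 of the other 139), Sp8 in 9 (19), Pitx1 in 7 (43) and Otx2 in 5 (16). None had Oc90 or Pax2, which 12 and 18 of the others had. Lens genes were near 0, with no UMI of Cryaa, Foxe3 or Pitx3. The 12 Oc90 cells make up 7.95% of the type.

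Shh marked cells of more than 1 cluster. Of the 14 cells with 5 or more UMIs of Shh, 7 were in cluster 3, 6 in cluster 4 and 1 in cluster 2. Among these 14, 11 had Foxa1 (15 of the other 137 cells), 10 had Foxa2 (17) and 6 had Pax9 (14). Trp63 was in 10 (74 of the others) and Sox2 in 11 (63), so these 2 genes were also common elsewhere. Of the 17 cells with 5 or more UMIs of Fgf8, 10 were in cluster 3 and 6 in cluster 1, and 1 had a UMI of Shh.

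Proliferation was intermediate. The summed level of 8 cell cycle genes was 8.26 in Epithelial Cell, with 8.76 and 8.71 in F0_8 and F0_9 and 6.76 and 9.65 in F1_1 and F1_mix. The other deep types ran from 0.741 in Neuroectoderm/Glia to 22.7 in Erythroblast, and 4 of the 11 were higher. Top2a, the topoisomerase of dividing cells, was seen in 70 cells.

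The EGFP transgene was detected in 150 of 151 cells (99.3%). Its level was 11.03 and 11.2 in F0_8 and F0_9 and 17.7 and 7.38 in F1_1 and F1_mix, with exact Poisson 95% intervals of 10.1 to 11.99, 10.4 to 12.1, 16.8 to 18.6 and 6.71 to 8.10. The founders lay between the 2 F1 suspensions. Copies of the transgene differ between embryos by design, so no test was made between generations. Single cells ran from 0 to 65.0, with a median of 9.83. Thinned to 5000 gene UMIs, 146 of 150 cells (97.3%) kept a UMI.

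Against the other deep types outside the red cells, Epithelial Cell was low in EGFP. The level was 0.783 and 0.889 times the median of the 9 other types in F0_8 and F0_9 and 0.714 and 0.628 times in F1_1 and F1_mix. It was the lowest of the 10 types in F1_1 and F1_mix and had rank 2 and rank 5 from the bottom in F0_8 and F0_9. The direction was the same in 4 of 4 suspensions, with a mean log2 ratio of -0.42 ± 0.21 (SD, n = 4) and an exact two-sided sign-flip permutation p of 0.125, which is the smallest that 4 suspensions allow. Among clusters, the counting intervals of EGFP overlapped within each F1 suspension and not all within each founder. In F0_8 the level was 18.2 in cluster 2 (interval 16.1 to 20.5) and 6.92 in clusters 1 and 3, and in F0_9 it was 14.9 in cluster 2 and 6.22 in cluster 3. In F1_1 all clusters lay between 17.2 and 18.4, and in F1_mix between 6.58 and 8.07. Cluster values rest on 4 to 19 cells each, and whether the spread between clusters differs between generations was not tested.

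**Figure D4:**
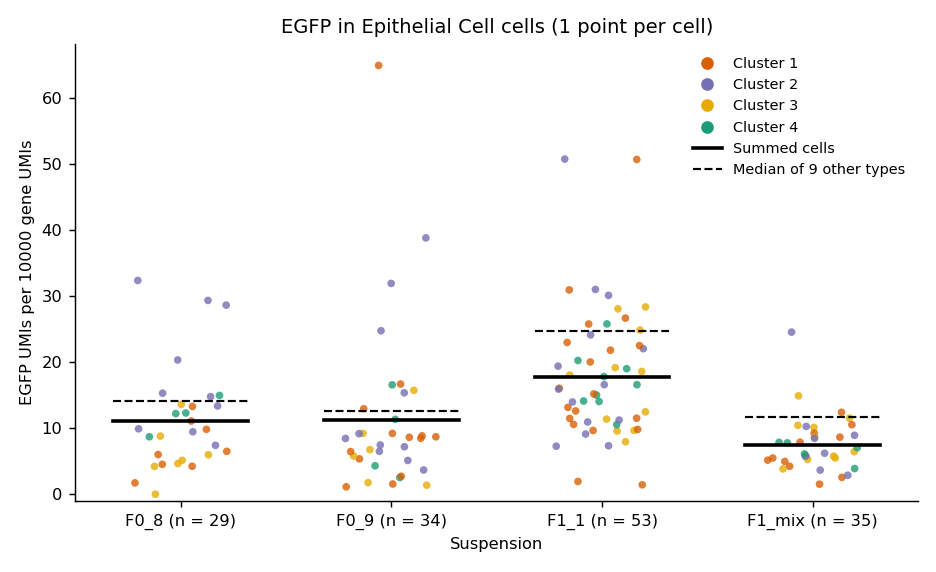
EGFP level (UMIs per 10000 gene UMIs, y axis) of each Epithelial Cell cell by suspension (x axis), coloured by cluster, with the level of the summed cells (solid line) and the median of the 9 other deep types outside the red cells (dashed line). The solid line is below the dashed line in all 4 suspensions, and the highest points of F0_8 belong to cluster 2.

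Founders and F1 were then compared over all genes on UMIs summed per suspension with edgeR. Of 8065 genes tested, 0 passed an adjusted p of 0.05 (0% called), 538 (6.67%) had an unadjusted p under 0.05, and in 36.3% the 2 founder suspensions did not overlap the 2 F1 suspensions. DESeq2, with 114 genes at an unadjusted p under 0.05, called 6 genes, Galntl6, Igfbp2, Kcnd2, Mest, Peg3 and Tmsb4x. Without 1 suspension edgeR called more, 79 genes without F0_8, 119 without F0_9, 92 without F1_1 and 114 without F1_mix, and 13 genes, Fgf8, Pax2, Mest, Peg3 and Igfbp2 among them, were called in all 4 of these fits. Each of those fits leaves 1 generation with a lone suspension, and they share suspensions, so recurring calls are not separate support. On counts simulated with the same dispersion for every gene, the edgeR test recovered 97% of 200 genes changed 4-fold. The share does not carry over to genes that vary more between suspensions or to smaller differences. The p-values measure the spread between suspensions, and generation cannot be told apart from differences between embryos, of which F1_mix pooled more than 1.

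The epithelial core gave no call and no separation. The log2 differences (founder minus F1) of Epcam, Krt8, Krt18 and Cdh1 had a median of 0.05, and founders and F1 overlapped for all 4. Of 10 tested surface genes, 3 had an unadjusted p under 0.05 (6.67% of all genes) and 5 did not overlap between generations (36.3% of all genes), 3 of them higher and 2 lower in founders. Krt5 had the smallest adjusted p (0.498), with a log2 difference of 0.72 ± 0.23 (SE). Of 3 tested endoderm genes, Foxa2 had the smallest adjusted p, 0.682. Fgf8 was lower in both founders, with a log2 difference of -1.85 ± 0.52 (SE) and an edgeR adjusted p of 0.361. Pax2, a factor of ear and kidney, lay at levels of 0.0603 and 0.122 in the founders and 0.422 and 0.511 in the F1 suspensions, and an edgeR adjusted p of 0.0884.

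Of 8 immediate early and heat shock genes, 5 were abundant enough to be tested, and all 5 were higher in both founders than in both F1 suspensions with an unadjusted p under 0.05, against 36.3% of all genes that did not overlap in either direction and 6.67% with such a p, while 0 of 5 passed the adjusted threshold. Egr1 had levels of 2.11 and 1.84 in F0_8 and F0_9 and of 0.722 and 1.05 in F1_1 and F1_mix. Jun had levels of 3.52, 5.15, 1.89 and 2.92, in the same order, and Fosb had levels of 1.45, 1.83, 1.11 and 0.907. The edgeR adjusted p was 0.0884 for Egr1, 0.269 for Jun and 0.396 for Fosb, and the median log2 difference of the 5 genes was 0.75. Such genes are known to respond to dissociation, and the part of handling was not tested. The genes with the smallest adjusted p of all (0.0641 by edgeR) included Mest and Peg3, which are expressed from the paternal allele, and Igfbp2. Mest had levels of 2.78, 2.67, 4.55 and 5.11, Peg3 had 2.82, 2.04, 4.89 and 4.32, and Igfbp2, a binding protein of insulin-like growth factors, had 8.85, 10.3, 13.4 and 14.6. All 3 genes were lower in both founders, and they were singled out after their values were seen.

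**Figure D5:**
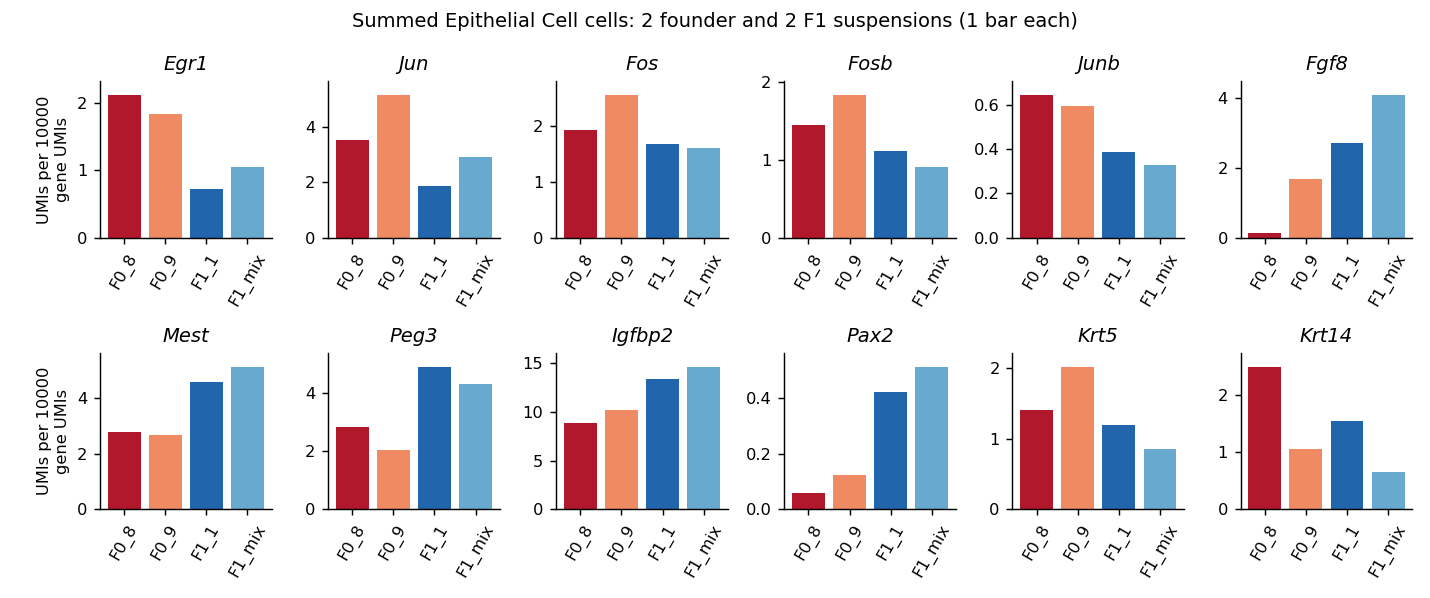
Level (UMIs per 10000 gene UMIs, y axis from 0) of 12 genes in the summed Epithelial Cell cells of each suspension (x axis), founders in red shades and F1 in blue shades, with 1 bar per suspension and no error bar because each is a single sample. Egr1, Jun, Fos, Fosb and Junb are higher in both founders, Fgf8, Mest, Peg3, Igfbp2 and Pax2 are higher in both F1 suspensions, and Krt14 overlaps.

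Y-linked transcripts were counted because the embryos may differ in sex. UMIs of 4 Y-linked genes were found in 28 of 29 and 1 of 34 cells of F0_8 and F0_9 and in 3 of 53 and 15 of 35 cells of F1_1 and F1_mix. In F1_mix, which pooled more than 1 embryo, the Y-bearing cells were spread over all 4 clusters, with 3 of 11, 4 of 9, 6 of 10 and 2 of 5 cells. Both generations held 1 suspension with few such cells.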

How the data were processed

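scRNA-seq counts of 1 gene expression library with 4 multiplexed suspensions were used. The deposited matrices hold UMI counts per gene. The authors mapped reads to GRCm38 (mm10) plus EGFP with Cell Ranger, whose release is 7.2.0 in the file headers and an earlier one in the methods text. Cell types, germ layers and the mitochondrial percent came from the authors' deposited cell table, made after DoubletFinder and a mitochondrial limit that 10 cells exceed on these counts. No doublet caller was rerun, and SoupX and RECODE corrections were not applied to the counts used here. Of its columns, 16 were not used.

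Cells were matched by barcode within each suspension. Levels are sums of UMIs over cells, scaled to 10000 gene UMIs, with exact Poisson 95% intervals, and shares carry exact binomial 95% intervals. The limit for a count of 0 is 3 counts. Intervals and limits cover counting error only. A gene was said to be above the next highest type when its lowest suspension exceeded every suspension of the deep type with the highest pooled level. The suspensions were grouped as founder and F1 from the series description. Summed counts were tested with edgeR 4.0.16 (quasi-likelihood, filterByExpr, TMM, Benjamini-Hochberg adjustment over 8065 genes, EGFP left out), which was tested on simulated data, and with DESeq2 1.42.0 as an alternative. Clustering used 2000 variable genes, 20 principal components, 15 neighbours and leidenalg 0.10.2 at resolution 1, without EGFP, oligos, mitochondrial and Y-linked genes and Xist.

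Named genes were those of 35 lists, the 30 genes with 50 or more UMIs and the highest ratio to the next deep type, up to 12 called genes in each direction between generations, and the 10 leading genes with 30 or more UMIs of each cluster. Tfap2b, Mecom and Galntl6 lay outside this rule and were picked for extreme ratios between surface and endoderm calls. The members and lists were chosen with earlier results of these data known. Results for a few named genes are not reported here.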

Additional observations from a re-analysis of the deposited data

How the results depend on the processing

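Levels, shares and numbers of cells of Epithelial Cell were recomputed under 64 alternatives to 10 such values, and none moved by more than the spread between suspensions. Among the alternatives were a mitochondrial limit of 5%, equal weight to each suspension, another denominator, 1 or 3 list genes for a call, thinning to 5000 gene UMIs and leaving out each suspension (the last chosen after seeing the data for levels, calls and EGFP). Leaving out or reweighting suspensions averages the same suspensions, so those alternatives say little about stability. The spread is wide for the endoderm calls, whose share was 8% after thinning and 9.18% without F1_1, against 12.6%. The number of clusters was 2 at Leiden resolution 0.5 and 7 with 10 neighbours, instead of 4, so cluster borders depend on the setting.

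The founder against F1 count depended most on the processing. Against 0 genes called by edgeR, DESeq2 called 6 (2 higher and 4 lower in founders) and edgeR without a filter called 24 (15 higher and 9 lower), while size factors of DESeq2, surface calls alone and cells with 5000 or more gene UMIs gave 0. Without 1 suspension the count was 79 to 119 (43 to 69 higher and 27 to 62 lower): 79 without F0_8, 119 without F0_9, 92 without F1_1 and 114 without F1_mix. In these fits a lone suspension is assumed to vary like the other generation, and 13 genes, among them Fgf8, Mest, Peg3, Igfbp2, Pax2, Galntl6 and Nol4, were called in all 4 of them. The fits share suspensions, so genes called in all of them have no separate support from each. The cause of the differences in count was not tested. No paired analysis was possible because the labels give the suspensions no replicate numbers and tie no founder to an F1 embryo.

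With 2 suspensions per generation and 29 to 53 cells each, genes seen in few cells, such as Oc90 or Sftpc, have no usable error, and shares of the rarer calls have wide intervals.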
